A study of Homo sapiens with 15 samples.

Results

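The 31 genes described here encode 18 enzymes of cholesterol synthesis (ACAT2, HMGCS1, MVK, PMVK, MVD, IDI1, FDPS, FDFT1, SQLE, LSS, CYP51A1, TM7SF2, MSMO1, NSDHL, HSD17B7, EBP, SC5D and DHCR7), 7 enzymes of fatty acid synthesis (ACLY, ACACA, FASN, ELOVL6, SCD, FADS1 and FADS2), called lipogenic enzymes below, and 6 regulators and carriers (SREBF1, SREBF2, SCAP, INSIG1, INSIG2 and STARD4). They were taken from the 25737 entries of the deposited table by gene symbol, and all 31 were found there 1 time each. Their mRNA was measured in U87MG, an established human glioblastoma line grown in medium with serum, collected 24 h after transduction with lentivirus. The 15 libraries fall into 5 groups of 3, a control transduced with GFP lentivirus and cells labelled as overexpressing ID1, ID2, ID3 or ID4. ID proteins are helix-loop-helix factors that lack a DNA-binding region and hold back the basic helix-loop-helix factors they pair with. The labels do not say whether libraries of a group came from separate cultures, so p-values measure the spread between these libraries, which may be technical. The comparisons ask which synthesis genes differed between each ID group and GFP, which differed between ID groups, and whether the sterol enzymes moved with the lipogenic enzymes.

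Cells make cholesterol from acetyl-CoA through mevalonate, farnesyl diphosphate, squalene and lanosterol, and make fatty acids from the same acetyl-CoA through malonyl-CoA and palmitate. Both routes are under the control of SREBP transcription factors, which are made as precursors in the endoplasmic reticulum membrane. When sterols are scarce, the escort protein SCAP carries the precursor to the Golgi, where proteases release the active factor. When sterols are plentiful, INSIG proteins keep SCAP in place. SREBF2 encodes the form best known for sterol genes, and SREBF1 encodes the forms best known for fatty acid genes. Glioblastoma cells are known to depend on this supply of lipids.

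The promoters of 5 genes that later results turn on are shown here. They are the 250 bases before the start of each gene, read 5′ to 3′ on the gene's strand, from RefSeq (GRCh38.p14), whereas the expression files are on hg19. They span chr5:43313413-43313662 (minus strand) for HMGCS1, chr17:41919023-41919272 (minus strand) for ACLY, chr10:100346983-100347232 (plus strand) for SCD, chr7:155297628-155297877 (plus strand) for INSIG1 and chr22:41832855-41833104 (plus strand) for SREBF2. Capitals mark CCAAT or its reverse complement ATTGG, the letters recognised by the factor NF-Y, and TCACNCCAC, a core of the sterol regulatory element that SREBPs bind.
HMGCS1: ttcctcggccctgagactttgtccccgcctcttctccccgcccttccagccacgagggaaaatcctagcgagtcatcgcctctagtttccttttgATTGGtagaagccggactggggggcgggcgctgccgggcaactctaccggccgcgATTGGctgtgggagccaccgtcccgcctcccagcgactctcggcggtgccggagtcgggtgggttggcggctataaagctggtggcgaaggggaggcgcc
ACLY: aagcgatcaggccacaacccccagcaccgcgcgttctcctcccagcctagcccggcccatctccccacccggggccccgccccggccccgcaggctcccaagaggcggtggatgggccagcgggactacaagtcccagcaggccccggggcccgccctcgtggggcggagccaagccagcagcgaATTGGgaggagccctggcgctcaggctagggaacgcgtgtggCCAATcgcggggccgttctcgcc
SCD: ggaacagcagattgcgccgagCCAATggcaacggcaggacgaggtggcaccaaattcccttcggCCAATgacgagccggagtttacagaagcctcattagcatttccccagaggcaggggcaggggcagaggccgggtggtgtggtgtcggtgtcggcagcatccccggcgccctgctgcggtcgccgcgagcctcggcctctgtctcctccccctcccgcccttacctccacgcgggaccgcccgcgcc
INSIG1: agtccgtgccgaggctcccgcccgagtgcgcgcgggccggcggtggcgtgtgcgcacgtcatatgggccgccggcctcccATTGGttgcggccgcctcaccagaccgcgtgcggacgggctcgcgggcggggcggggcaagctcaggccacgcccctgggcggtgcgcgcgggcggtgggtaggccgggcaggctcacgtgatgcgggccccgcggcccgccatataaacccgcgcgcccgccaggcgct
SREBF2: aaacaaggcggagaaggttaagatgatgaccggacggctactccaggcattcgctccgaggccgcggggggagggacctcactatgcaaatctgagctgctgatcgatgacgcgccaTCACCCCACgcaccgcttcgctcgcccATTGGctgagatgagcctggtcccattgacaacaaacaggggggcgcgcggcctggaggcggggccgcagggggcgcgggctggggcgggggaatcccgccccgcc
CCAAT on either strand stood in 17 of the 27 genes of the set that had an entry in the promoter table, and in 33.04% of all 27305 promoters of the same length. It was found in 12 of 15 sterol enzymes, 2 of 6 lipogenic enzymes and 3 of 6 regulators. The 2 lipogenic enzymes are ACLY and SCD, both shown above, so the sequences shown do not stand for their class. TCACNCCAC matched 1 gene, SREBF2, with the letters TCACCCCAC starting 133 bases before the gene, and 0.875% of all promoters. The E-box letters CACGTG matched 3 genes (6.49% of all promoters), and CACCTG matched 4 (17.5%). Matches were counted on both strands and separately for each motif, overlaps included, and they describe letters in a window, not a bound site. Genes without an entry were ACAT2, FDFT1, SQLE and FASN.

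Total counts per library were 11089044 to 15148979, and 3 counts, taken as the floor, correspond to 0.198 to 0.271 CPM (read counts scaled to the library total), which covers counting error only. ID2 replicate 3 stood apart from its group before any comparison. The chi-square statistic per gene between its counts and those of the other ID2 libraries was 10.8 and 11.3, against 2.25 to 5.27 for the other pairs of replicates. Relative to its group, the 10% of genes with the lowest transcript GC content had a median deviation of -0.09 (log2) in it and the 10% with the highest 0.12. Without it, the ID2 calls against GFP below all held. Values that changed a call in ID2 against GFP, and some others that moved, are given beside the result. The overexpressed gene was checked first. ID1 was at 247 to 254 CPM in libraries labelled ID1, below the 337 to 350 of GFP, and ID2 was at 43.7 to 46.2 CPM in libraries labelled ID2, below the 83.1 to 88.7 of GFP. These falls were not particular to the label. ID2 was also below GFP in ID1 (31.6 to 36.8), ID3 (45.6 to 48.7) and ID4 (34.8 to 37.7). ID1 was also below GFP in ID4 (260 to 299) and overlapped it in ID2 and ID3. ID3 was at 301 to 323 CPM in libraries labelled ID3, above the 214 to 230 of GFP, but the libraries labelled ID2 were at 268 to 319 and overlapped them. ID4 was at 210 to 235 CPM in libraries labelled ID4, against at most 0.748 elsewhere. ID1 and ID2 thus went against their labels, so these are the libraries labelled ID1 and ID2 wherever a group is named below, and the counts do not tell vector from endogenous transcripts. Of 7 astroglial and glioma markers, VIM, CD44 and NES lay at 16.6 CPM or more in every library, while GFAP, S100B and SOX2 had at most 4 counts and OLIG2 at most 11. Of 14 neuronal, immune, endothelial and epithelial markers, SNAP25, SYT1 and CD68 were above the floor in every library, and the summed level ran from 9.70 to 35.6 CPM for the neuronal, 49.4 to 74.0 for the immune, 0.0660 to 0.767 for the endothelial and 0.331 to 1.27 for the epithelial list. Of these 14, SNAP25 was at 6.13 to 9.79 CPM in GFP and above that range without overlap in ID1 (13.9 to 15.99), ID2 (20.96 to 32.4) and ID3 (13.2 to 22.8), and CD68 was at 49.04 to 56.3 in GFP and 69.8 to 73.4 in ID2. SYT1 was at 1.57 to 3.59 over all libraries, below the GFP range in ID1 and overlapping it in the other groups, and the other 11 had at most 15 counts. The part of these genes in the results was not tested.

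Counts were tested with edgeR's quasi-likelihood test over all 15 libraries, with Benjamini-Hochberg adjustment over the 12870 genes in the upper 50% by mean level and a threshold of 0.05 on the adjusted p. All adjusted p-values below come from this test unless another is named, and fold changes are log2 values of the fit with a standard error (SE). The SE was worked back from the test, as the absolute log2 fold change divided by the square root of the F statistic. Of the 31 genes, 30 were tested. TM7SF2, a sterol reductase, lay at 0.149 to 0.969 CPM and was not. The 4 comparisons with GFP share the 3 GFP libraries. In whole-culture RNA, fewer cells of a kind and less RNA per cell cannot be told apart.

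Against GFP, 19 of the 30 tested genes passed in at least 1 ID group, 9 of them only higher, 9 only lower, and FDPS higher in one group and lower in another. The share of all genes that passed in at least 1 group is not given here, so the 19 stands without a background. With the ID1 label, 8 genes rose and 2 fell, where 12.4% of all genes tested rose and 9.73% fell. With the ID2 label, 7 rose and 2 fell, against 18.5% and 16.7% of all genes. With the ID3 label, 4 rose and 8 fell, against 15.1% and 13.5%. With the ID4 label, 3 rose and 2 fell, against 12.1% and 9.51%. ACLY alone passed in all 4 groups. All changes that passed were modest, from a fall by 31.7% to a rise by 43.8% on the linear scale.

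**Figure D1:**
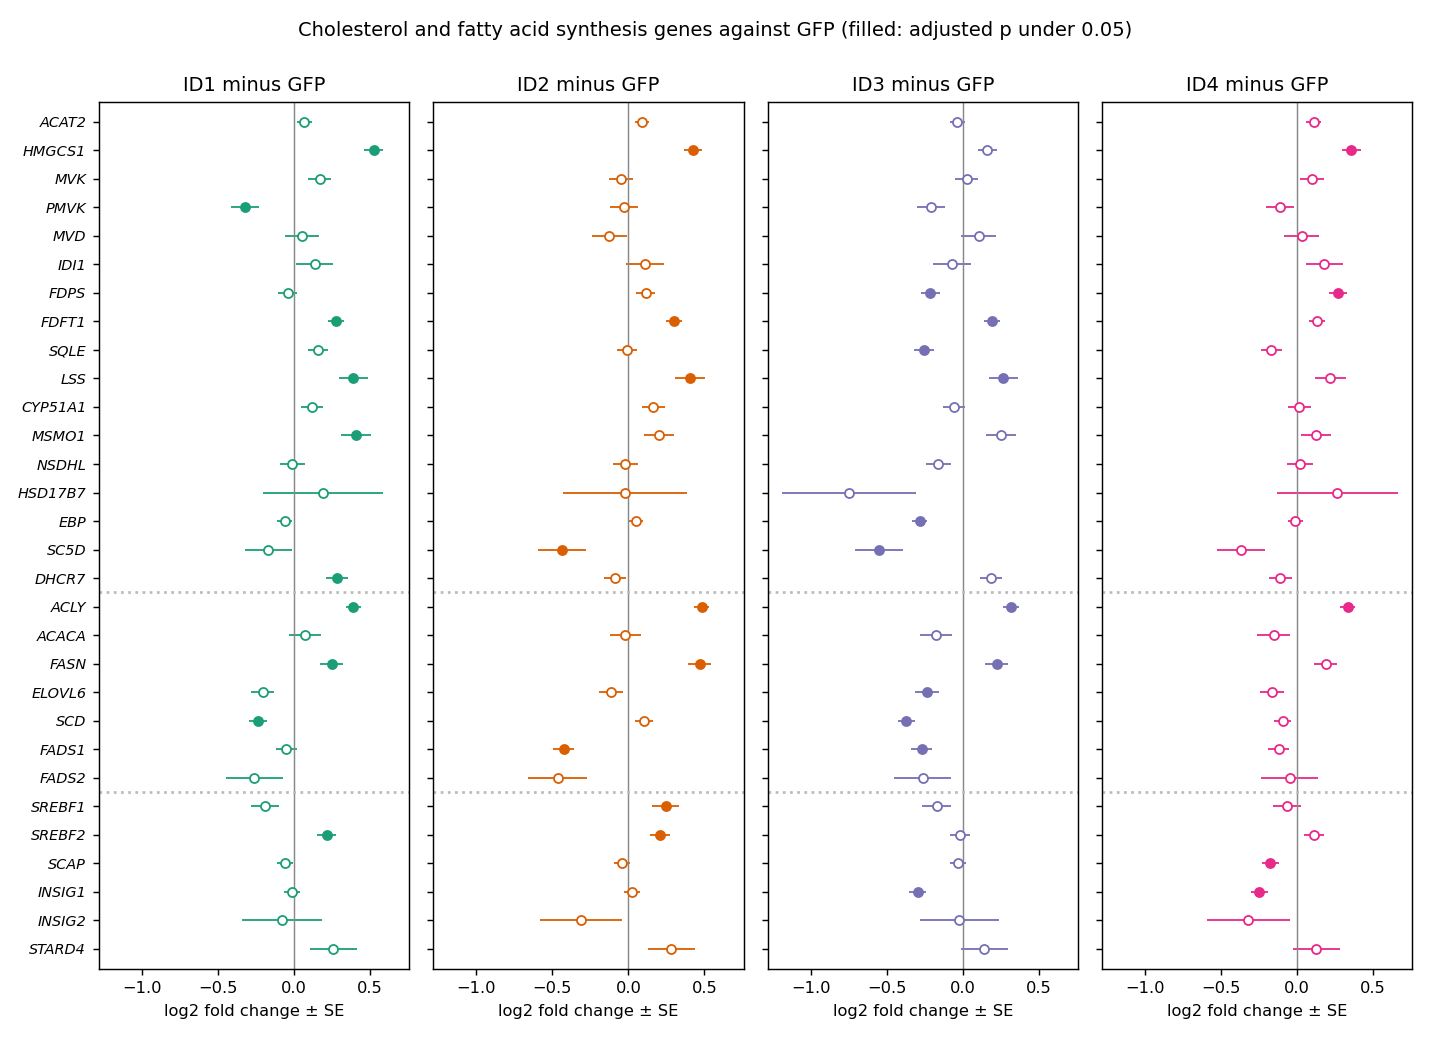
Log2 fold change against GFP (horizontal axis, ± SE worked back from the edgeR test) of the 30 tested genes in each ID group, with sterol enzymes above the first dotted line, lipogenic enzymes below it and regulators below the second. Filled points have an adjusted p under 0.05, as HMGCS1 in ID1, ID2 and ID4 and ACLY in all 4 panels, while the ID3 panel has filled points on both sides of 0.

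Neither the sterol nor the lipogenic enzymes all moved in one direction. Of the 17 tested sterol enzymes, 5 rose and 1 fell with the ID1 label, 3 rose and 1 fell with ID2, 2 rose and 4 fell with ID3, and 2 rose and 0 fell with ID4, where 2 sterol enzymes were lower at an unadjusted p under 0.05 and DESeq2 called 0. As shares, 29.41%, 17.65%, 11.76% and 11.76% rose in ID1, ID2, ID3 and ID4, beside 12.4%, 18.5%, 15.1% and 12.1% of all genes. Those that fell were 5.88%, 5.88%, 23.53% and 0%, beside 9.73%, 16.7%, 13.5% and 9.51% of all genes. Of the 7 lipogenic enzymes, 2 rose and 1 fell with ID1, 2 rose and 1 fell with ID2, 2 rose and 3 fell with ID3, and 1 rose and 0 fell with ID4, where 0 lipogenic enzymes were lower at an unadjusted p under 0.05 and DESeq2 called 0. In the same order of groups, 28.57%, 28.57%, 28.57% and 14.29% of them rose and 14.29%, 14.29%, 42.86% and 0% fell, beside the same shares of all genes. The median log2 fold change of the sterol enzymes was 0.14, 0.05, -0.06 and 0.10 in ID1, ID2, ID3 and ID4, and that of the lipogenic enzymes -0.05, -0.02, -0.23 and -0.09, beside -0.0039 to 0.00098 for all genes tested. Summed over the 18 sterol enzymes, GFP libraries held 1150 to 1164 CPM, ID1 1258 to 1286, ID2 1224 to 1244, ID3 1121 to 1147 and ID4 1242 to 1252. The sums of ID1, ID2 and ID4 lay above GFP without overlap and those of ID3 below it. The lipogenic sums were 1841 to 1879 in GFP, 1811 to 1922 in ID1, 2007 to 2169 in ID2, 1680 to 1787 in ID3 and 1873 to 1945 in ID4, with ID1 and ID4 overlapping GFP. The sums are given with no test and weigh abundant genes most. In GFP, SCD averaged 1093 CPM and ACLY 460 among the lipogenic enzymes. Among the sterol enzymes, ACAT2 averaged 274, EBP 173 and FDPS 142 CPM there.

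Sterol synthesis begins with acetoacetyl-CoA and HMG-CoA. HMGCS1, which makes HMG-CoA (ENSG00000112972, chromosome 5, 43287572 to 43313614 on GRCh37), was the sterol enzyme with the largest rise. HMGCS1 was at 87.1, 95.1 and 95.3 CPM in the GFP libraries, 135, 131 and 137 in ID1, 122, 122 and 124 in ID2, 100.1, 101 and 113 in ID3 and 118, 124 and 114 in ID4. Every ID1, ID2 and ID4 library lay above every GFP library, and so did the 3 ID3 libraries, by less. The log2 fold change was 0.52 (SE 0.06, adjusted p = 1.06e-06, edgeR's quasi-likelihood test) in ID1, 0.43 (SE 0.06, adjusted p = 9.25e-06, edgeR) in ID2 and 0.36 (SE 0.06, adjusted p = 0.000168, edgeR) in ID4. In ID3 it was 0.16 (SE 0.06, adjusted p = 0.052, edgeR), just outside the threshold. HMGCS1 did pass in ID3 with libraries recentred by chromosome, at 0.17 (adjusted p = 0.0472, edgeR). It also passed there in the upper 25% of genes and with no normalization factors. The change in ID2 was 0.41 without ID2 replicate 3. PMVK, the kinase that makes mevalonate diphosphate, went the other way with the ID1 label. In GFP libraries PMVK was at 34.2, 33.6 and 26.3 CPM, in ID1 at 23.9, 25.3 and 26.9, in ID2 at 29.8, 28.2 and 33.3, in ID3 at 28.3, 27.4 and 26.9 and in ID4 at 30.3, 29.4 and 27.7. GFP libraries 1 and 2 were above all ID1 libraries but GFP library 3 fell among them, and the log2 fold change was -0.32 (SE 0.09, adjusted p = 0.0146, edgeR's quasi-likelihood test). Without GFP replicate 1, GFP replicate 2 or ID1 replicate 1 the call was lost, at an adjusted p of up to 0.0827 in edgeR.

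Farnesyl diphosphate is the branch point to sterols and other isoprenoids, and FDFT1 (squalene synthase), SQLE (squalene epoxidase) and LSS (lanosterol synthase) carry it to the first sterol. Levels of FDFT1 were 85.8, 83.7 and 81.8 CPM in GFP, 103, 102 and 103 in ID1, 107, 98.9 and 99.6 in ID2, 97.7, 94.7 and 98.8 in ID3 and 87.7, 95.6 and 92.3 in ID4. All libraries of the 4 ID groups were above the GFP range. FDFT1 rose by 0.28 (SE 0.05, adjusted p = 0.000552, edgeR's quasi-likelihood test) in ID1, 0.30 (SE 0.05, adjusted p = 0.000142, edgeR) in ID2 and 0.19 (SE 0.05, adjusted p = 0.00966, edgeR) in ID3 on the log2 scale, and its value in ID4 was 0.13 (SE 0.05, adjusted p = 0.092, edgeR). With libraries recentred by chromosome, FDFT1 was higher in ID4 by 0.22 (adjusted p = 0.00522, edgeR), beside a median gene of its chromosome, 8, at -0.09. LSS was at 16.8, 17.5 and 14.5 CPM in the GFP libraries, 24.2, 20.3 and 20.1 in ID1, 20.4, 21.4 and 22.001 in ID2, 20.3, 19.8 and 19.4 in ID3 and 20.2, 17.7 and 18.9 in ID4. The ID1, ID2, ID3 and ID4 libraries all lay above the GFP range. LSS rose by 0.39 (SE 0.10, adjusted p = 0.00525, edgeR's quasi-likelihood test) in ID1, 0.41 (SE 0.10, adjusted p = 0.00229, edgeR) in ID2 and 0.27 (SE 0.10, adjusted p = 0.0444, edgeR) in ID3. The ID3 call was lost in 11 of 25 alternative fits (adjusted p up to 0.195), among them DESeq2, the fit with a replicate block and those without GFP replicate 1 or 3, any 1 ID3 library or ID4 replicate 3. The ID1 call was lost without ID1 replicate 1 (adjusted p = 0.0507, edgeR). SQLE, the oxygen-using step between them, passed in ID3 alone. In GFP libraries SQLE was at 45.7, 45.3 and 46.9 CPM, in ID1 at 48.9, 54.8 and 51.6, in ID2 at 44.7, 46.7 and 44.2, in ID3 at 38.9, 37.1 and 41.4 and in ID4 at 42.2, 41.3 and 39.4. Its ID3 and ID4 libraries were all below GFP and its ID1 libraries all above. It fell by 0.25 (SE 0.07, adjusted p = 0.00668, edgeR's quasi-likelihood test) in ID3. Its log2 fold change was 0.15 (SE 0.07, adjusted p = 0.1001, edgeR) in ID1 and -0.17 (SE 0.07, adjusted p = 0.0806, edgeR) in ID4.

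The later enzymes trim lanosterol to cholesterol. MSMO1, which oxidises methyl groups of the sterol ring, rose with the ID1 label. Levels of MSMO1 were 31.3, 26.02 and 31.5 CPM in GFP, 39.01, 39.8 and 40.4 in ID1, 37.5, 35.2 and 28.4 in ID2, 38.9, 34.7 and 33.7 in ID3 and 35.7, 30.5 and 30.7 in ID4. All ID1 libraries were above all GFP libraries, with a log2 fold change of 0.41 (SE 0.10, adjusted p = 0.00381, edgeR's quasi-likelihood test). ID2 replicate 3 was the lowest of its group, and without it MSMO1 was also higher in ID2, by 0.30 (SE 0.09, adjusted p = 0.0114, edgeR's quasi-likelihood test). EBP, the isomerase that shifts a ring double bond, fell in ID3 alone. EBP was at 171, 176 and 173 CPM in the GFP libraries, 167, 163 and 173 in ID1, 178, 177 and 176 in ID2, 139.9, 143 and 150.5 in ID3 and 167, 172 and 177 in ID4. The ID3 libraries lay below all 12 others, and the log2 fold change against GFP was -0.28 (SE 0.05, adjusted p = 0.00019, edgeR's quasi-likelihood test). SC5D, the desaturase after EBP, was measured at few counts, 53 to 116 per library. In GFP libraries SC5D was at 8.17, 8.29 and 6.03 CPM, in ID1 at 6.73, 6.58 and 6.94, in ID2 at 5.39, 4.92 and 6.16, in ID3 at 5.48, 5.55 and 4.56 and in ID4 at 6.44, 4.78 and 6.13. GFP library 3 was within the ID2 range and lower than the other GFP libraries, which were above every ID library. SC5D fell by 0.43 (SE 0.16, adjusted p = 0.0363, edgeR's quasi-likelihood test) in ID2 and 0.55 (SE 0.16, adjusted p = 0.0125, edgeR) in ID3. Without ID2 replicate 3 the ID2 value was -0.53 (SE 0.18, adjusted p = 0.0213, edgeR). The ID2 call was lost in 7 of 25 alternative fits (adjusted p up to 0.138), among them DESeq2 and those without GFP replicate 1, GFP replicate 2, ID2 replicate 1 or ID2 replicate 2, and the ID3 call without GFP replicate 1, GFP replicate 2 or ID3 replicate 3 (up to 0.0619).

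FDPS and DHCR7 also passed the test. The rule for genes shown by library did not name them, and both were added with their values known. FDPS, which makes farnesyl diphosphate, had opposite changes in 2 groups. Levels of FDPS were 133, 145 and 147 CPM in GFP, 136, 143 and 138 in ID1, 159, 149 and 147 in ID2, 122, 119 and 129.8 in ID3 and 170.3, 184 and 159 in ID4. ID3 libraries were all below GFP and ID4 libraries all above. It fell by 0.21 (SE 0.06, adjusted p = 0.0127, edgeR's quasi-likelihood test) in ID3 and rose by 0.27 (SE 0.06, adjusted p = 0.00295, edgeR) in ID4. The ID3 call was lost without GFP replicate 2, GFP replicate 3 or ID3 replicate 2 (adjusted p up to 0.0603). DHCR7, the last reductase of one route to cholesterol, passed against GFP only with the ID1 label. DHCR7 was at 40.2, 37.5 and 36.2 CPM in the GFP libraries, 44.7, 45.5 and 49.8 in ID1, 35.1, 34.6 and 36.1 in ID2, 46.5, 41.8 and 43.01 in ID3 and 36.96, 32.2 and 36.3 in ID4. ID1 and ID3 libraries were above the GFP range and ID2 libraries below it, but only the ID1 change of 0.28 (SE 0.07, adjusted p = 0.00657, edgeR's quasi-likelihood test) passed, and without ID1 replicate 3 its adjusted p was 0.0506. In ID3, DHCR7 was at 0.18 (adjusted p = 0.0614, edgeR) and at 0.22 (adjusted p = 0.0255, edgeR) with libraries recentred by chromosome. It also passed in ID3 in the upper 25% of genes and with no normalization factors. DHCR7 was not called between ID1 and ID3. The other 7 tested sterol enzymes passed in no group against GFP. They were ACAT2 (262 to 306 CPM), MVK (50.5 to 67.3), MVD (28.5 to 47.6), IDI1 (23.5 to 37.8), CYP51A1 (40.4 to 52.7), NSDHL (44.3 to 55.6) and HSD17B7 (0.580 to 3.85). Without ID2 replicate 3, which had the lowest IDI1 value of all at 23.5 CPM, IDI1 and CYP51A1 were higher in ID2 by 0.29 (SE 0.09, adjusted p = 0.0104) and 0.20 (SE 0.08, adjusted p = 0.0469) by edgeR's quasi-likelihood test, which took the number of sterol enzymes that rose in ID2 from 3 to 6. Over all 12870 genes, those of either direction called in ID2 went from 4519 to 4425. The same omission took the number that rose in ID3 from 2 to 4, adding HMGCS1 and MSMO1, while the genes of either direction called in ID3 over all 12870 went from 3685 to 4171. Counts are assigned by symbol with the strand setting not given in the sources used here, so that values of ACAT2, CYP51A1 and SREBF1, which overlap the coding genes TCP1, AKAP9 and RAI1 on the other strand at their 3′ ends, are uncertain. So are those of FDPS, which overlaps RUSC1-AS1 there and has 8 named pseudogenes, of IDI1 and CYP51A1 with 3 each, of HSD17B7 with 2 and of SCD with 1. HMGCS1, LSS and ACLY each overlap an antisense gene without a symbol at their 3′ ends (ENSG00000261604, ENSG00000228404 and ENSG00000274630), which makes their values uncertain in the same way.

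**Figure D2:**
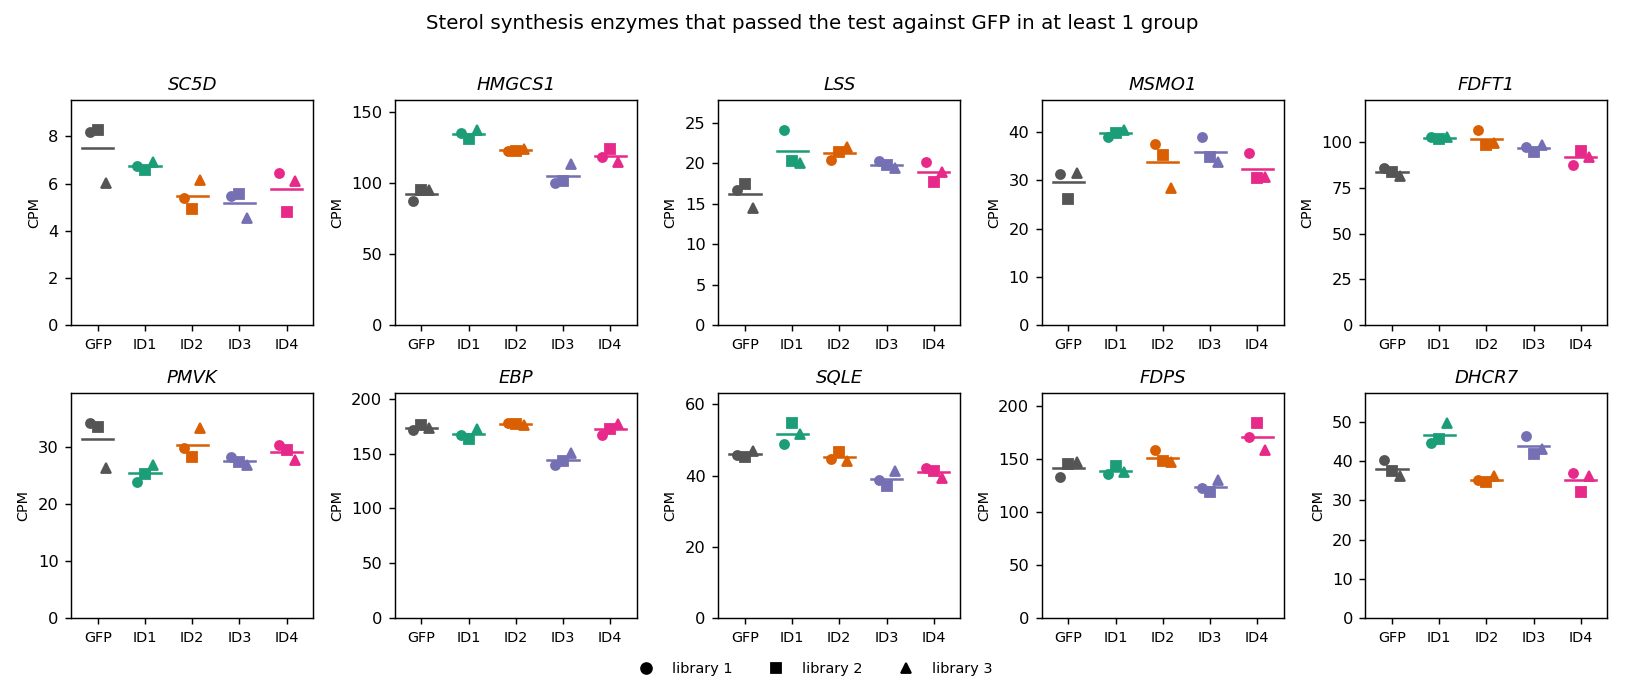
Levels in CPM (vertical axis, from 0) of the 10 sterol enzymes that passed against GFP in at least 1 group, with 1 point per library, a symbol for each replicate number and a line at the group mean (n = 3). HMGCS1 lies above GFP in every ID group, EBP and FDPS are lowest in ID3, and FDPS is highest in ID4.

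The lipogenic enzymes are taken in the order of the route. ACLY, which cleaves citrate to the cytosolic acetyl-CoA that feeds both routes (ENSG00000131473, chromosome 17, 40023170 to 40086795 on GRCh37), rose in every ID group. In GFP libraries ACLY was at 443, 478 and 459 CPM, in ID1 at 586, 613 and 631, in ID2 at 619, 645 and 643, in ID3 at 555, 588 and 601 and in ID4 at 558, 601 and 581. The lowest ID library, at 555 CPM, was above the highest GFP library, at 478. Its log2 fold change was 0.39 (SE 0.05, adjusted p = 4.77e-06, edgeR's quasi-likelihood test) in ID1, 0.48 (SE 0.05, adjusted p = 1.29e-07, edgeR) in ID2, 0.32 (SE 0.05, adjusted p = 5.80e-05, edgeR) in ID3 and 0.33 (SE 0.05, adjusted p = 4.33e-05, edgeR) in ID4. These calls held in all 26 alternative fits each. FASN, the synthase that makes palmitate, rose in ID1, ID2 and ID3. Levels of FASN were 64.7, 59.7 and 59.3 CPM in GFP, 78.2, 73.5 and 68.8 in ID1, 78.4, 78.8 and 93.9 in ID2, 73.9, 75.4 and 68.4 in ID3 and 70.9, 66.5 and 72.1 in ID4. All 12 ID libraries were above the GFP range, and ID2 replicate 3 was the highest. FASN rose by 0.25 (SE 0.08, adjusted p = 0.0203, edgeR's quasi-likelihood test) in ID1, 0.47 (SE 0.08, adjusted p = 3.96e-05, edgeR) in ID2 and 0.22 (SE 0.08, adjusted p = 0.029, edgeR) in ID3, while its value in ID4 was 0.19 (SE 0.08, adjusted p = 0.085, edgeR). Without ID2 replicate 3 the ID2 value was 0.37 (SE 0.07, adjusted p = 0.000131, edgeR's quasi-likelihood test), and the calls in ID1 and ID3 were each lost without GFP replicate 2, GFP replicate 3, or replicate 1 or 2 of the ID group (adjusted p up to 0.111 and 0.117). ACACA, the carboxylase between ACLY and FASN, did not pass. ACACA was at 15.4, 20.3 and 15.3 CPM in the GFP libraries, 18.5, 17.7 and 17.9 in ID1, 15.8, 18.1 and 15.8 in ID2, 15.7, 14.9 and 15.1 in ID3 and 15.2, 15.6 and 15.1 in ID4. GFP library 2 was the highest of all, and every ID group overlapped the GFP range.

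The enzymes that lengthen and desaturate the fatty acid were lower or did not pass. SCD, the desaturase that makes oleate (ENSG00000099194, chromosome 10, 102106990 to 102124583 on GRCh37), fell in ID1 and ID3. In GFP libraries SCD was at 1120, 1072 and 1086 CPM, in ID1 at 911, 999 and 902, in ID2 at 1118, 1123 and 1239, in ID3 at 841, 828 and 903 and in ID4 at 1090, 997 and 989. All ID1 and ID3 libraries were below the GFP range, and the ID2 libraries lay at its top or above. SCD fell by 0.24 (SE 0.06, adjusted p = 0.0039, edgeR's quasi-likelihood test) in ID1 and 0.37 (SE 0.06, adjusted p = 3.68e-05, edgeR) in ID3. Its values in ID2 and ID4 were 0.10 (SE 0.06, adjusted p = 0.169, edgeR) and -0.09 (SE 0.06, adjusted p = 0.268, edgeR). The median gene of chromosome 10 also differed from GFP, by -0.14, -0.16, -0.08 and -0.10 in ID1, ID2, ID3 and ID4. With each library recentred by chromosome, an alternative added after the data were seen, SCD was at -0.11 (adjusted p = 0.232) in ID1, 0.25 (adjusted p = 0.00158) in ID2, -0.28 (adjusted p = 0.000767) in ID3 and 8.07e-05 (adjusted p = 0.999) in ID4 by edgeR. Levels of ELOVL6 were 33.9, 37.6 and 30.8 CPM in GFP, 30.1, 29.8 and 29.6 in ID1, 30.5, 31.3 and 31.5 in ID2, 30.3, 29.7 and 28.2 in ID3 and 31.7, 28.3 and 31.4 in ID4. For ELOVL6, which lengthens palmitate, every ID1 and ID3 library was below the GFP range, and it passed only in ID3, where it fell by 0.23 (SE 0.08, adjusted p = 0.0283, edgeR's quasi-likelihood test). That call was lost in 5 of 26 fits (adjusted p up to 0.181), among them those without GFP replicate 2, ID3 replicate 2 or ID3 replicate 3.

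FADS1 and FADS2 desaturate polyunsaturated fatty acids and lie side by side on chromosome 11. FADS1 was at 185, 207 and 184 CPM in the GFP libraries, 183, 184 and 194 in ID1, 141, 140.0 and 142 in ID2, 159, 161 and 164 in ID3 and 173, 157 and 199.8 in ID4. FADS1 was lowest in ID2, where all libraries lay within 140 to 142 CPM, and ID3 was also below GFP without overlap. It fell by 0.43 (SE 0.07, adjusted p = 5.07e-05, edgeR's quasi-likelihood test) in ID2 and 0.27 (SE 0.07, adjusted p = 0.00565, edgeR) in ID3. In GFP libraries FADS2 was at 7.18, 5.39 and 7.28 CPM, in ID1 at 5.02, 5.23 and 6.57, in ID2 at 4.96, 5.05 and 4.22, in ID3 at 5.68, 4.13 and 7.03 and in ID4 at 6.98, 7.21 and 5.15. FADS2 was measured at 58 to 102 counts per library and passed in no group. Its largest difference was -0.47 (SE 0.19, adjusted p = 0.0654, edgeR's quasi-likelihood test) in ID2, where all libraries lay below the GFP range.

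**Figure D3:**
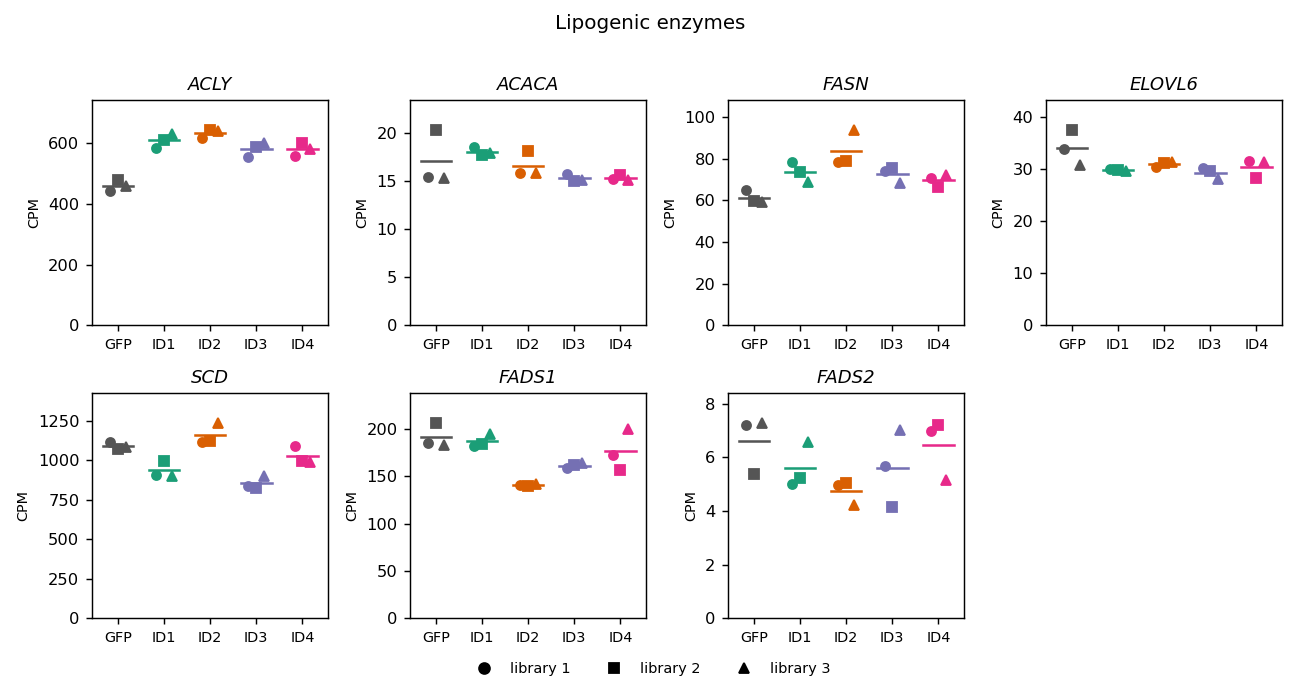
Levels in CPM (vertical axis, from 0) of the 7 lipogenic enzymes, with 1 point per library and a line at the group mean (n = 3). ACLY and FASN lie above GFP in every ID library, SCD is below GFP in ID1 and ID3, and FADS1 is lowest in ID2 at 140 to 142 CPM.

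Among the regulators, SREBF2 passed in ID1 and ID2, SREBF1 in ID2, INSIG1 in ID3 and ID4, and SCAP in ID4. Between ID1 and ID4, and between ID2 and ID4, SREBF2 was not called. SREBF2 rose in ID1 and ID2. Levels of SREBF2 were 64.4, 64.6 and 67.8 CPM in GFP, 72.8, 82.2 and 75.7 in ID1, 75.3, 73.95 and 75.5 in ID2, 68.96, 63.2 and 64.8 in ID3 and 76.1, 70.7 and 65.98 in ID4. All ID1 and ID2 libraries were above the GFP range, while ID3 overlapped it. The log2 fold change was 0.21 (SE 0.06, adjusted p = 0.0188, edgeR's quasi-likelihood test) in ID1 and 0.21 (SE 0.06, adjusted p = 0.0141, edgeR) in ID2. The ID1 call was lost without GFP replicate 1, GFP replicate 2 or ID1 replicate 2 (adjusted p up to 0.122) and the ID2 call without GFP replicate 1 (0.0613). SREBF1 was less even between libraries of a group. SREBF1 was at 50.99, 44.7 and 38.999 CPM in the GFP libraries, 41.2, 39.8 and 38.6 in ID1, 58.96, 53.9 and 45.3 in ID2, 44.1, 36.9 and 40.5 in ID3 and 44.01, 42.7 and 42.2 in ID4. It passed in ID2 alone, with 0.25 (SE 0.09, adjusted p = 0.0407, edgeR's quasi-likelihood test), and there 1 of the 3 libraries lay inside the GFP range. The call was lost in 11 of 26 fits (adjusted p up to 0.244), among them those without GFP replicate 2 or 3, ID1 replicate 2 or 3, ID2 replicate 1 or 2, or ID3 replicate 3, although it was larger without ID2 replicate 3, at 0.34 (SE 0.09, adjusted p = 0.00303, edgeR's quasi-likelihood test). INSIG1, which holds SCAP in the endoplasmic reticulum and is itself an SREBP target (ENSG00000186480, chromosome 7, 155089486 to 155101945 on GRCh37), fell in 2 groups. In GFP libraries INSIG1 was at 181, 167 and 173 CPM, in ID1 at 170.1, 171 and 179.7, in ID2 at 182, 167 and 174, in ID3 at 142, 137 and 150.3 and in ID4 at 144, 146 and 149. ID3 and ID4 libraries were all below the GFP range, and ID1 and ID2 libraries overlapped it. INSIG1 fell by 0.30 (SE 0.05, adjusted p = 0.000202, edgeR's quasi-likelihood test) in ID3 and 0.25 (SE 0.05, adjusted p = 0.00163, edgeR) in ID4, and both calls held in all 26 fits.

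SCAP, the escort, fell slightly in ID4. Levels of SCAP were 81.3, 82.5 and 76.6 CPM in GFP, 78.03, 80.05 and 75.2 in ID1, 76.6, 76.3 and 77.97 in ID2, 81.6, 76.2 and 80.6 in ID3 and 71.5, 71.4 and 70.1 in ID4. The ID4 libraries lay below all others, at -0.18 (SE 0.05, adjusted p = 0.0242, edgeR's quasi-likelihood test), a call lost in 6 of 26 fits (adjusted p up to 0.102), among them those without GFP replicate 2 or any 1 of the ID4 libraries. INSIG2, a second INSIG, and STARD4, which carries cholesterol between membranes, passed in no group. INSIG2 was at 10.7, 9.28 and 12.8 CPM in the GFP libraries, 8.98, 10.8 and 11.6 in ID1, 11.004, 10.9 and 4.29 in ID2, 11.3, 8.25 and 13.2 in ID3 and 9.66, 11.7 and 5.15 in ID4. ID2 replicate 3 and ID4 replicate 3 had the lowest INSIG2 values, and the log2 fold changes were between -0.32 and -0.02. Without ID2 replicate 3, INSIG2 in ID2 went from -0.31 to 0.01 (SE 0.21, adjusted p = 0.976, edgeR's quasi-likelihood test). In GFP libraries STARD4 was at 9.93, 9.03 and 9.62 CPM, in ID1 at 8.71, 13.2 and 12.8, in ID2 at 11.4, 13.2 and 9.82, in ID3 at 11.99, 9.53 and 10.5 and in ID4 at 10.7, 11.7 and 9.004. Each ID group overlapped the GFP range, and the log2 fold changes of STARD4 were between 0.13 and 0.28.

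**Figure D4:**
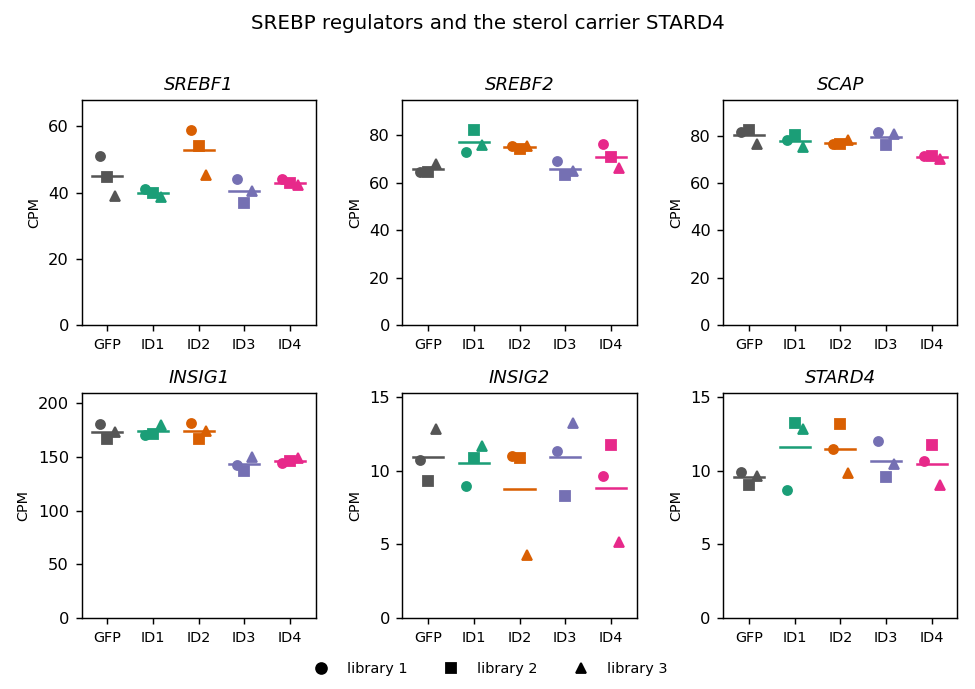
Levels in CPM (vertical axis, from 0) of the 5 SREBP regulators and STARD4, with 1 point per library and a line at the group mean (n = 3). INSIG1 lies at 137 to 150 CPM in ID3 and ID4 against 167 to 182 elsewhere, and SREBF2 is above GFP in ID1 and ID2.

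Differences between ID groups compare their means directly, and the GFP libraries enter only through the spread and the scaling of the shared fit. Tested for any difference among the 4 ID groups, 12 of the 30 genes passed, where 29.1% of all genes did. They were HMGCS1, FDPS, SQLE, EBP and DHCR7 among 17 sterol enzymes, ACLY, FASN, SCD and FADS1 among 7 lipogenic enzymes, and SREBF1, SREBF2 and INSIG1 among 6 regulators. Without ID2 replicate 3, 13 passed, with MVK, IDI1 and CYP51A1 in place of ACLY and FASN. Between single pairs, 6 genes differed between ID1 and ID2 (18.6% of all genes), 5 between ID1 and ID3 (9.18%), 4 between ID1 and ID4 (4.87%), 7 between ID2 and ID4 (18.6%) and 5 between ID3 and ID4 (11.3%).

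ID2 and ID3 differed in the most genes, and this pair was singled out after its values were seen. In ID2, 11 genes were higher than in ID3, where 7.58% of all genes were, and 1 was lower, where 7.46% were. The higher genes were 5 sterol enzymes (HMGCS1, FDPS, SQLE, CYP51A1 and EBP), 3 lipogenic enzymes (ACLY, FASN and SCD) and 3 regulators (SREBF1, SREBF2 and INSIG1), and the lower one was DHCR7. SCD was higher in ID2 by 0.47 (SE 0.06, adjusted p = 5.14e-06, edgeR's quasi-likelihood test), SREBF1 by 0.42 (SE 0.09, adjusted p = 0.0032, edgeR), EBP by 0.33 (SE 0.05, adjusted p = 8.31e-05, edgeR), FDPS by 0.33 (SE 0.06, adjusted p = 0.000907, edgeR), INSIG1 by 0.32 (SE 0.05, adjusted p = 0.000245, edgeR) and HMGCS1 by 0.26 (SE 0.06, adjusted p = 0.00427, edgeR). These 6 calls held in all 25 alternative fits. The other 6 were lost in 1 to 17 of them, CYP51A1 most often (adjusted p up to 0.173). DHCR7 was -0.27 (SE 0.07, adjusted p = 0.0124, edgeR). Without ID2 replicate 3, SREBF1 was higher by 0.51 (SE 0.09, adjusted p = 0.000111, edgeR) and SCD by 0.42 (SE 0.05, adjusted p = 3.44e-06, edgeR), so that their order turned. The median difference was 0.14 for the sterol enzymes, 0.15 for the lipogenic enzymes and 0.18 for the regulators, beside 0.00043 for all genes tested. Without ID2 replicate 3, 11 genes were again higher, with IDI1 in place of FASN, and MVD joined DHCR7 among the lower. Without ID3 replicate 1, 7 were higher and 0 lower. Over all genes tested, calls of either direction went from 1935 to 2372 without ID2 replicate 3 and to 1418 without ID3 replicate 1.

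**Figure D5:**
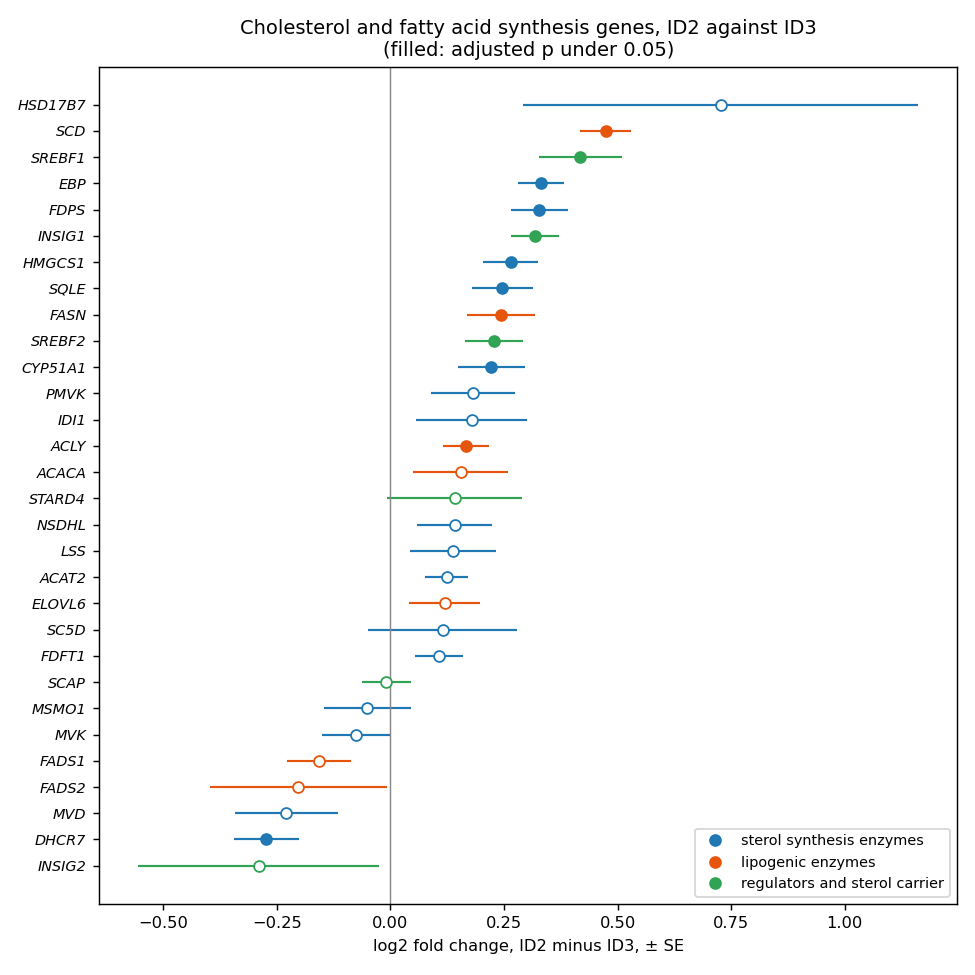
Log2 difference of ID2 minus ID3 (horizontal axis, ± SE worked back from the edgeR test) for the 30 tested genes, sorted by size and coloured by class. Filled points have an adjusted p under 0.05, and 11 of them lie to the right of 0 and DHCR7 to the left.

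Other differences between ID groups concerned single steps. FADS1 was lower in ID2 than in ID1 and ID4, by log2 differences of 0.37 (ID1 minus ID2, SE 0.07, adjusted p = 0.000587, edgeR's quasi-likelihood test) and -0.30 (ID2 minus ID4, SE 0.07, adjusted p = 0.00368, edgeR), whereas SCD and SREBF1 were higher in ID2 than in both. SQLE was higher in ID1 than in ID3 by 0.41 (SE 0.07, adjusted p = 0.000374, edgeR's quasi-likelihood test) and than in ID4 by 0.32 (SE 0.07, adjusted p = 0.00405, edgeR). DHCR7 was higher in ID1 than in ID2 by 0.37 (SE 0.07, adjusted p = 0.000887, edgeR's quasi-likelihood test) and than in ID4 by 0.39 (SE 0.07, adjusted p = 0.0016, edgeR). INSIG1 was higher in ID1 than in ID3 by 0.28 (SE 0.05, adjusted p = 0.00163, edgeR's quasi-likelihood test) and than in ID4 by 0.23 (SE 0.05, adjusted p = 0.00976, edgeR).

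Of 34 further genes of sterol and fatty acid metabolism, listed for their role, 30 were tested. In ID1, 5 rose and 2 fell, where 12.4% and 9.73% of all genes did. In ID2, 6 rose and 1 fell, against 18.5% and 16.7%. In ID3, 7 rose and 1 fell, against 15.1% and 13.5%, and in ID4, 5 rose and 2 fell, against 12.1% and 9.51%. ABCG1, ME1, HACD2 and MLXIPL were below the level tested. The SREBP proteases MBTPS1 and MBTPS2 passed in no group, at 45.2 to 59.5 and 9.20 to 14.7 CPM. The largest change was in POR, the reductase that passes electrons to CYP51A1 and SQLE. Levels of POR were 16.1, 17.7 and 16.2 CPM in GFP, 18.6, 15.8 and 17.01 in ID1, 19.7, 17.03 and 18.6 in ID2, 18.6, 18.996 and 16.8 in ID3 and 67.8, 68.2 and 69.2 in ID4. Only the ID4 libraries stood apart, at a log2 fold change of 2.04 (SE 0.08, adjusted p = 6.47e-14, edgeR's quasi-likelihood test), which is a 4.11-fold level. SOAT1, which esterifies cholesterol for storage, fell in all 4 ID groups. SOAT1 was at 71.1, 68.6 and 74.7 CPM in the GFP libraries, 44.4, 45.5 and 43.5 in ID1, 46.9, 46.8 and 42.1 in ID2, 46.2, 39.98 and 42.3 in ID3 and 41.8, 45.99 and 45.5 in ID4. The GFP libraries were above every ID library, with log2 fold changes of -0.70 (SE 0.07, adjusted p = 6.49e-08, edgeR's quasi-likelihood test) in ID1, -0.64 (SE 0.07, adjusted p = 1.17e-07, edgeR) in ID2, -0.76 (SE 0.07, adjusted p = 1.61e-08, edgeR) in ID3 and -0.69 (SE 0.07, adjusted p = 1.24e-07, edgeR) in ID4.

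GPAM, the acyltransferase that starts glycerolipid synthesis, rose in all 4 groups. In GFP libraries GPAM was at 28.5, 26.5 and 25.4 CPM, in ID1 at 35.4, 32.7 and 31.7, in ID2 at 35.1, 35.5 and 36.5, in ID3 at 37.6, 34.01 and 33.9 and in ID4 at 33.6, 31.8 and 40.03. Every ID library was above the GFP range, and the log2 fold changes were 0.30 (SE 0.09, adjusted p = 0.0147, edgeR's quasi-likelihood test) in ID1, 0.43 (SE 0.09, adjusted p = 0.000404, edgeR) in ID2, 0.37 (SE 0.09, adjusted p = 0.00226, edgeR) in ID3 and 0.39 (SE 0.09, adjusted p = 0.00198, edgeR) in ID4. TMEM97, which binds sterols in the endoplasmic reticulum, rose in ID2 by 0.44 (SE 0.06, adjusted p = 8.85e-06, edgeR's quasi-likelihood test) and in ID3 by 0.23 (SE 0.06, adjusted p = 0.00849, edgeR). CYB5R3, an electron donor to sterol and fatty acid oxygenases, rose in ID2 by 0.29 (SE 0.05, adjusted p = 5.78e-05, edgeR), and LPCAT3, which puts polyunsaturated chains into phospholipids, rose there by 0.49 (SE 0.11, adjusted p = 0.00172, edgeR). ID2 replicate 3 had the highest LPCAT3 level, 41.8 CPM against 28.2 and 32.4 in the other ID2 libraries, and without it the rise was 0.30 (SE 0.10, adjusted p = 0.0142, edgeR). The same omission added HSD17B12 (0.48, adjusted p = 0.00169), ACSL1 (0.33, adjusted p = 0.0499) and ACSL4 (0.18, adjusted p = 0.0473) to the genes of this list that were higher in ID2 by edgeR, and the other calls in ID2 held. SCD5, a second stearoyl-CoA desaturase, rose in ID1, ID3 and ID4 by 0.49 (SE 0.10, adjusted p = 0.000593, edgeR's quasi-likelihood test), 0.26 (SE 0.10, adjusted p = 0.0461, edgeR) and 0.34 (SE 0.10, adjusted p = 0.0148, edgeR), with SCD lower in ID1 and ID3. The ID3 value of SCD5 was 0.23 (adjusted p = 0.0806, edgeR) with libraries recentred by chromosome. HACD3, a dehydratase of fatty acid lengthening, passed as higher in all 4 groups by 0.25 to 0.34, but the median gene of its chromosome, 15, was also higher, by 0.26 to 0.37, and with libraries recentred by chromosome HACD3 was at -0.03 to -0.01 (adjusted p = 0.782 to 0.923, edgeR).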

How the data were processed

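Total RNA of 15 U87MG libraries (5 groups of 3) was sequenced from transcript 3′ ends (Lexogen QuantSeq), so counts per gene need no length scaling. The authors aligned reads to hg19, with Bowtie2 and BWA named in the submitters' processing notes without versions or roles, and deposited raw read counts for 25737 entries (286 symbols listed more than once). The authors also deposited log2 values, described as quantile-normalised, used here for the expression filter and as an alternative. How reads were counted and the strand setting are not given in the sources used here. Genes in the upper 50% by mean log2 value (at or above 3.22) were tested with edgeR 4.0.16 in R 4.3.3 (quasi-likelihood F test, TMM factors of 0.978 to 1.026, 1 mean per group, Benjamini-Hochberg 0.05). This kept 12870 genes. CPM are counts over the whole library total. The pipeline was tested on simulated data. Alternatives were limma 3.58.1 on the deposited log2 values, DESeq2 1.42.0, other filters and scalings, a replicate block, only the 2 groups compared and each library left out. Recentring by chromosome or GC content was added after the data were seen. The 8 sterol enzymes with the largest absolute mean log2 fold change over the 4 comparisons with GFP, among those that passed in at least 1, and all lipogenic enzymes and regulators are shown by library. The genes and lists were chosen with earlier results of these data known. Gene positions are from GENCODE on GRCh37. Figures were drawn with matplotlib 3.10.9.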

Additional observations from a re-analysis of the deposited data

Results flagged for a closer look

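FDPS, which makes farnesyl diphosphate, moved in opposite directions in 2 ID groups. It was lower than GFP in all 3 ID3 libraries and higher in all 3 ID4 libraries, and the difference of ID3 minus ID4, tested in the same edgeR fit, was -0.48 on the log2 scale (SE 0.06, adjusted p = 2.00e-05). FDPS overlaps the antisense gene RUSC1-AS1 at its 3′ end and has 8 named pseudogenes, and their part in the difference was not tested.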

How the results depend on the processing

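Of 48 single-gene calls, 36 against GFP and 12 between ID2 and ID3, 21 and 6 held under every alternative run for them. Over 1231 alternative values, 1135 kept direction and call, 96 lost the call and 0 changed direction. Against GFP, the number of sterol enzymes that fell in ID2 went from 1 to 0 in the upper 25% of genes, in DESeq2 and with only the 2 groups. Over all genes, ID2 calls of either direction were 4519 of 12870 in the main fit and 3025 of 6436 in the upper 25%. They were 4254 in DESeq2 and 3656 with only the 2 groups. The number that rose in ID3 went from 2 to 4 in the upper 25% of genes and with recentring by chromosome, to 5 with no normalization factors, and to 1 in DESeq2 and with the replicate block. Over all genes, ID3 calls of either direction were 3685 of 12870 in the main fit and 2509 of 6436 in the upper 25%. They were 3429 with recentring by chromosome, 3585 with no normalization factors, 3433 in DESeq2 and 3517 with the replicate block. The number that rose in ID4 went from 2 to 4 with recentring by chromosome, while ID4 calls of either direction over all genes went from 2775 to 2258. Lipogenic enzymes that fell went from 1 to 2 in ID1 with recentring by GC content and in ID2 with no filter, and those that rose in ID4 went from 1 to 2 with only the 2 groups and with recentring by GC content. Over all genes, ID1 calls went from 2849 to 2901 with recentring by GC content. With no filter, ID2 calls were 4656 of 20253. For ID4, calls went from 2775 to 3029 with only the 2 groups and 2794 with recentring by GC content. The median of the sterol enzymes in ID1 went from 0.14 to 0.094 with recentring by chromosome. In ID2 it went from 0.049 to 0.085 in limma and 0.018 with recentring by GC content. In ID3 it went from -0.057 to -0.027 in the upper 25% of genes and -0.090 with recentring by chromosome, and in ID4 from 0.099 to 0.065 with filterByExpr, 0.067 with no filter and 0.039 with recentring by chromosome. The median of the lipogenic enzymes in ID2 went from -0.020 to 0.11 in the upper 25% of genes, and in ID4 from -0.094 to 8.07e-05 with recentring by chromosome. The upper 25% setting tests fewer genes. The cause of these changes was not tested for any setting.

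With 1 library left out at a time, sterol enzymes that rose numbered 3 to 6 in ID2 and 1 to 4 in ID3, and those that fell 0 to 1 in ID1, ID2 and ID4. Lipogenic enzymes that rose numbered 1 to 2 in ID1, ID3 and ID4, and those that fell 1 to 2 in ID1 and ID2 and 0 to 1 in ID4. Over all 12870 genes, calls of either direction against GFP numbered 2220 to 3297 in ID1 and 3928 to 4522 in ID2. They numbered 2909 to 4171 in ID3 and 2133 to 3221 in ID4. Genes higher in ID2 than in ID3 numbered 7 to 11 and lower genes 0 to 2, while calls of either direction over all genes tested numbered 1352 to 2372. The sterol median ran from 0.10 to 0.19 in ID1, 0.0029 to 0.061 in ID2, -0.078 to -0.015 in ID3 and 0.025 to 0.10 in ID4. The lipogenic median ran from -0.087 to 0.0075 in ID1, -0.10 to 0.092 in ID2 and -0.25 to -0.16 in ID3.

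Replicate numbers are shared by the groups in the labels, but same-numbered libraries did not deviate together. The correlation of their deviations ran from -0.23 to 0.23 over 30 pairs, with 3 above 0.1, and a library correlated best with its own number in 15 of 60 cases. The replicate block took LSS in ID3 (adjusted p = 0.0502, edgeR) and CYP51A1 between ID2 and ID3 (adjusted p = 0.0566, edgeR) past the threshold. It changed no other of the 48 single-gene calls, which leave out the further genes and the other pairs of ID groups.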

Other observations

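Median genes of several chromosomes that hold the genes described differed from GFP with the same sign in every ID group. The median gene of chromosome 15 was higher by 0.26 to 0.37, that of chromosome 12 higher by 0.14 to 0.20, that of chromosome 10 at -0.16 to -0.08 and that of chromosome 8, which holds FDFT1 and SQLE, at -0.12 to -0.03 on the log2 scale. On chromosome 10, with libraries recentred by chromosome, GPAM was higher in all 4 groups by 0.43 to 0.58, and SCD was higher in ID2 by 0.25 and lower in ID3, at -0.28. On chromosome 12, MVK was at -0.05 in ID2 as reported and at -0.23 (adjusted p = 0.0308, edgeR) with libraries recentred by chromosome, while LPCAT3 in ID2 went from 0.49 to 0.31 (adjusted p = 0.0441, edgeR) and ACACB in ID3 from 0.33 to 0.18 (adjusted p = 0.166, edgeR).

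Fatty acid activation and lengthening held further differences from GFP. ACSL1, a long-chain acyl-CoA synthetase, was higher in ID1 by 0.52 and in ID3 by 0.44, and ACSL4, which prefers polyunsaturated chains, was higher in ID1 by 0.24 and in ID4 by 0.27. TECR, the last reductase of each lengthening round, was lower in ID1 by a log2 difference of -0.46 and in ID4 by -0.45. THRSP, a lipogenic protein measured at 2.40 to 6.19 CPM, was higher in ID2 by 0.63 and in ID3 by 0.60.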
